A study of Mus musculus with 2 samples.

Results

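Toll-like receptors are the subject here, as 10 mouse genes that were chosen by symbol from the 32285 genes counted: the receptors Tlr1, Tlr2, Tlr3, Tlr4, Tlr7, Tlr9 and Tlr13, the signaling adaptor Myd88, and Cd14 and Ly96, which help present lipopolysaccharide to Tlr4. All 10 were found in both libraries. The study asked whether gambogic amide (GA), a small molecule agonist of the nerve growth factor receptor TrkA, alters the healing of a calvarial bone defect, and it profiled single cells of the defect by 10x Genomics 3′ RNA sequencing. C57BL/6 mice aged 2 months received a defect of 1.8 mm in the skull bone. One group received intraperitoneal GA at 1.2 mg/kg in 100 μL of 10% DMSO, first 24 h before injury and then daily for 1 week, and the other (Control) received 100 μL of 10% DMSO alone. The labels name no transgene or deletion in either group. Bone around the defect was dissected on day 7, digested with collagenase (types I and II, 1 mg/ml each), depleted of red blood cells by lysis, and pooled from 5 mice into 1 library per condition. With 1 library per condition no test between GA and Control was possible, and no p-value is given.

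Toll-like receptors recognize conserved microbial molecules and some molecules released by damaged tissue. Tlr1, Tlr2 and Tlr4 sit at the cell surface, where Tlr2 pairs with Tlr1 or Tlr6 to bind lipopeptides, and Tlr4 binds lipopolysaccharide together with Ly96 (MD-2) after delivery by Cd14. Tlr3, Tlr7, Tlr9 and Tlr13 read nucleic acids inside endosomes. Every receptor among them except Tlr3 can signal through Myd88, which leads to NF-κB activation and inflammatory cytokine production. In an early bone wound, neutrophils and macrophages are the main carriers of these receptors.

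The GA matrix held 9322 barcodes with 182949385 unique molecular identifiers (UMIs, each standing for 1 captured transcript), and the Control matrix held 8718 barcodes with 214993030. Of these barcodes, 23 occurred in both libraries. After filtering, 8383 GA and 7569 Control cells remained, in 35 clusters and 16 marker-named classes, 15 of which held at least 50 cells over both libraries. Levels below are counts per 1000000 UMIs (CPM), with each class of each library taken as 1 sum. Brackets hold exact 95% Poisson intervals, which cover counting error only and not the differences between mice. Limits used to name classes were chosen with the data in view. The classes that should lack these receptors set the background: in T- or NK-like cells (median 8737 UMIs per GA cell and 6904 per Control cell) no member other than Myd88 exceeded 8.15 CPM in either library. Erythroid-like cells had 4.09 CPM of Cd14 in GA and 104 in Control, and 1.36 and 15.1 CPM of Tlr2. In Control, the 5 richest cells held 94.7% of these Cd14 UMIs and 90.9% of these Tlr2 UMIs. The pericyte- or smooth muscle-like class was shallow (medians of 2028 and 2460.5 UMIs).

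The genes lie apart in the GRCm38 (mm10) genome by the GENCODE annotation: Tlr1 at chr5:64924679-64933563 on the minus strand, Tlr2 at chr3:83836272-83841767 (minus), Tlr3 at chr8:45395665-45411080 (minus), Tlr4 at chr4:66827584-66930284 (plus), Tlr7 at chrX:167304929-167330558 (minus), Tlr9 at chr9:106222598-106226883 (plus), Tlr13 at chrX:106143204-106160493 (plus), Myd88 at chr9:119335934-119341411 (minus) and Ly96 at chr1:16688051-16709611 (plus). All are protein-coding. Myd88 lies within the annotated span of Slc22a14 on the same strand, and 1736 bases of it overlap Acaa1a on the other strand, so its UMIs could include reads that belong to a neighbour. Tlr3 overlaps the antisense gene Gm45542 over 698 bases.

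Promoter sequence from RefSeq (250 bases before to 50 after the start site, GRCm38.p6) was matched for Tlr1, Tlr2, Tlr3, Tlr9, Tlr13 and Myd88, with 7 promoters in all. It was searched on both strands for 4 short motifs of myeloid and inflammatory transcription factors. GAGGAAGT (PU.1) was found in 3.20% of all 32851 promoters, GGGANTTCC (NF-κB) in 1.68%, GAAANNGAA (interferon response) in 8.56% and TGANTCA (AP-1) in 7.81%. Each motif matched 1 of the 7 promoters, except GAGGAAGT, which matched 2, those of Tlr1 and Tlr9. The Tlr2 motif matched on both strands at overlapping places. The pattern TGANTCA is its own reverse complement, so the Tlr9 match counts on both strands at the same place. The windows below show 1 match for each motif 5′ to 3′ on the strand of the gene, with the motif in capitals and 20 bases to each side. The Tlr1 match starts 23 bases before the start site (chr5:64933554-64933601, minus), the Tlr2 match 172 bases before it (chr3:83841752-83841800, minus), the Myd88 match 40 bases before it (chr9:119340030-119340078, minus) and the Tlr9 match 58 bases before it (chr9:106222520-106222566, plus). A match describes the letters of this window and not binding.
Tlr1, GAGGAAGT: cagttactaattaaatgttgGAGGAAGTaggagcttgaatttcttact
Tlr2, GGGANTTCC: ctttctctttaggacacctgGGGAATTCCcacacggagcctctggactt
Myd88, GAAANNGAA: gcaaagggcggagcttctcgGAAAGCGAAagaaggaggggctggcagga
Tlr9, TGANTCA: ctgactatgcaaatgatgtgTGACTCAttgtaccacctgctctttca

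Cd14 had the most UMIs of the 10 genes and Tlr9 the fewest. Over all cells of the GA and Control libraries, respectively, 61081 and 59491 UMIs were counted for Cd14, 15706 and 17655 for Tlr2, 6584 and 5672 for Tlr4, 5617 and 4955 for Myd88, 3570 and 2874 for Tlr13, 2844 and 4272 for Ly96, 1923 and 2959 for Tlr7, 865 and 814 for Tlr1, 621 and 795 for Tlr3, and 30 and 56 for Tlr9. UMIs from the 3′ end depend on the transcript as well as on its abundance, so these totals set the precision for each gene and are not an order of expression.

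**Figure D1:**
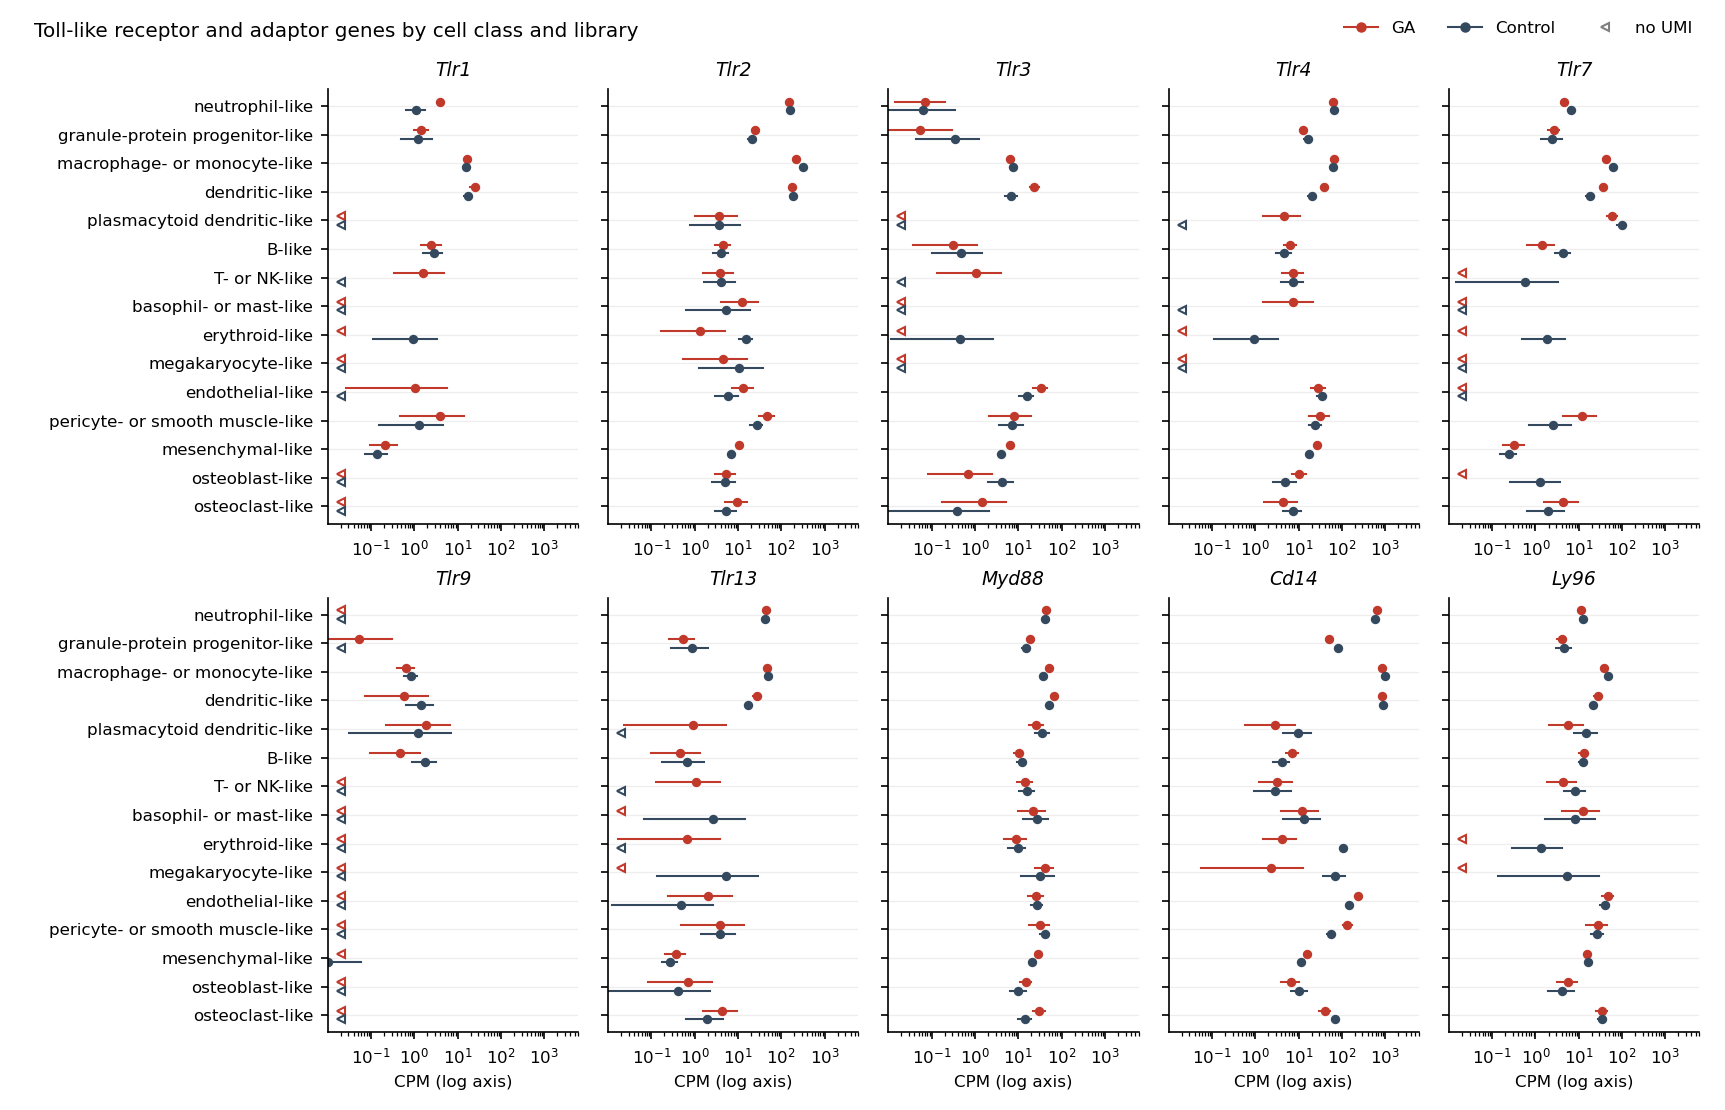
Level of each gene (CPM, log axis) in 15 cell classes of the GA (red) and Control (blue-grey) libraries. Points are class sums, lines are exact 95% Poisson intervals, and open triangles mark classes with no UMI. Tlr2, Cd14 and Tlr13 stand high in neutrophil-, macrophage- and dendritic-like cells, Tlr7 in plasmacytoid dendritic- and macrophage-like cells, and Myd88 has UMIs in every class.

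Tlr2, the lipopeptide receptor, was carried by the phagocytes. Macrophage- or monocyte-like cells had 223 CPM (218.4–228.5) in the GA library and 316 (310.4–321.2) in the Control library. Dendritic-like cells followed with 174 and 185 CPM, and neutrophil-like cells with 152 and 160 CPM. None of the intervals of neighbours in this order overlapped, in either library. B-like and T- or NK-like cells stayed between 3.79 and 4.49 CPM in both libraries. At least 1 Tlr2 UMI was found in 84.2% of GA and 87.7% of Control macrophage-like cells, in 59.1% and 51.2% of neutrophil-like cells, and in 3.65% and 3.17% of T- or NK-like cells. When each cell was thinned to 2000 UMIs, these shares were 32.3% and 40.2%, 28.9% and 29.3%, and 0.529% and 0.922%.

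Tlr1, the partner of Tlr2 for triacylated lipopeptides, was highest in dendritic-like cells, at 24.6 CPM (19.6–30.4) in GA and 17.1 CPM (14.0–20.6) in Control. Macrophage-like cells came next with 16.6 and 15.7 CPM. The intervals of these classes overlapped in the Control library and did not in the GA library. Neutrophil-like cells stood at 3.82 CPM (3.25–4.45) in GA and 1.08 (0.6305–1.73) in Control, and mesenchymal-like cells, which form the stroma and bone lineage, at 0.207 and 0.135 CPM.

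Tlr4, the lipopolysaccharide receptor, was carried by phagocytes and by stroma. Macrophage-like cells had 67.3 CPM in GA and 62.5 in Control, and neutrophil-like cells 61.6 and 64.8. In the Control library the intervals of these classes overlapped, and in the GA library the macrophage level was above the neutrophil level. Endothelial-like cells had 28.8 CPM (19.1–41.6) and 34.5 CPM (26.9–43.5), and their interval overlapped that of dendritic-like cells (38.9 and 20.1 CPM) in the GA library only. Mesenchymal-like cells had 26.7 CPM (25.2–28.3) and 17.3 CPM (16.5–18.2). At least 1 Tlr4 UMI was found in 55.5% of GA and 44.2% of Control mesenchymal-like cells, whose median depths were 52320 and 51234 UMIs, and 5.12% and 3.56% remained after thinning.

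Cd14, the glycolipid-anchored carrier of lipopolysaccharide, was highest in macrophage- and dendritic-like cells. Macrophage-like cells had 836 CPM in GA and 1018 in Control, dendritic-like cells 867 and 910, and neutrophil-like cells 651 and 583. The intervals of dendritic- and macrophage-like cells overlapped in the GA library. Levels were far lower in mesenchymal-like cells (15.4 and 11.7 CPM) and in T- or NK-like cells (3.25 and 2.91 CPM). In endothelial-like cells Cd14 reached 234 and 147 CPM, but the 5 cells richest in it carried 91.2% of the GA and 75.6% of the Control UMIs.

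Ly96, the secreted co-receptor without which Tlr4 does not bind lipopolysaccharide, was spread over immune and non-immune classes. It stood at 38.5 CPM (36.4–40.7) and 47.7 CPM (45.6–49.8) in macrophage-like cells, 46.2 and 39.8 in endothelial-like cells, 34.5 and 34.8 in osteoclast-like cells, and 15.3 and 16.7 in mesenchymal-like cells. The first 3 of these could not be ordered by their intervals in the GA library, nor could neighbours among them in the Control library. Neutrophil-like cells had 11.2 and 12.4 CPM. Erythroid-like cells had no Ly96 UMI in GA, where 3 counts would be 2.05 CPM, and 3 UMIs in Control.

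The 3 transcripts of the lipopolysaccharide receptor complex were found together mainly in macrophage-like cells. Tlr4, Ly96 and Cd14 each had a UMI in 458 of 1358 GA cells (33.7%, exact binomial interval 31.2–36.3) and in 599 of 1809 Control cells (33.1%, 30.9–35.3). Mesenchymal-like cells had 15.6% (13.1–18.3) and 11.1% (9.67–12.7), dendritic-like cells 15.9% (10.7–22.3) and 9.09% (6.22–12.7), whose intervals overlapped in each library, and neutrophil-like cells 2.12% and 1.20%. No T- or NK-like cell of 192 and 221 held all 3 at its depth, which is lower than that of macrophage-like cells. Thinned to 2000 UMIs, macrophage-like cells held all 3 in 0.815% and 0.665%, and 1 mesenchymal-like cell of both libraries did, so the unthinned shares depend on the depth per cell.

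Among the endosomal receptors, Tlr13, which binds bacterial ribosomal RNA, followed the phagocytes. Macrophage-like cells had 46.4 CPM in GA and 49.3 in Control, neutrophil-like cells 43.6 and 43.0, and dendritic-like cells 27.5 and 17.4. The macrophage and neutrophil intervals overlapped in the GA library and were just apart in the Control library. Mesenchymal-like cells stood at 0.367 and 0.270 CPM.

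Tlr7, a receptor for single-stranded RNA, was highest in plasmacytoid dendritic-like cells, at 58.9 CPM (45.3–75.4) in GA and 96.8 CPM (76.5–121) in Control from 63 and 78 UMIs. Macrophage-like cells followed with 42.9 CPM (40.8–45.2) and 62.4 CPM (60.0–64.8). Dendritic-like cells stood at 36.3 and 18.2 CPM, with an interval that overlapped that of macrophage-like cells in GA only. Neutrophil-like cells had only 4.66 and 6.75 CPM, and Tlr7 separated these classes far more than Tlr13. No Tlr7 UMI was found in endothelial-like cells of either library, where 3 counts would be 3.08 CPM in GA and 1.46 CPM in Control.

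Tlr3, a receptor for double-stranded RNA that signals without Myd88, was the member seen in stromal classes and nearly missing from neutrophils. Endothelial-like cells were highest with 32.9 CPM (22.5–46.4) in GA and 15.55 CPM (10.63–21.95) in Control. Of the 32 UMIs in 45 endothelial-like GA cells, however, 15 came from 1 cell, and no UMI was left when the 31 cells deep enough were thinned to 2000 UMIs. Dendritic-like cells had 23.7 and 6.86 CPM, macrophage-like cells 6.45 and 7.4, and mesenchymal-like cells 6.29 and 3.94. The endothelial and dendritic intervals overlapped in GA, and in Control the endothelial level stood above macrophage- and dendritic-like cells, which overlapped. Neutrophil-like cells, with 3 UMIs over the GA class and 1 over the Control class, stood at 0.0702 and 0.0637 CPM. At least 1 Tlr3 UMI was found in 25.3% and 17.1% of mesenchymal-like cells, in 1.04% of GA and no Control T- or NK-like cells, and, after thinning, in 0.895% and 0.816% of mesenchymal-like cells.

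Tlr9, the receptor for unmethylated CpG DNA, was close to the detection limit. It had 22 and 34 UMIs in macrophage-like cells, 3 and 11 in B-like cells, 2 and 9 in dendritic-like cells, and 2 and 1 in plasmacytoid dendritic-like cells. These levels, between 0.464 and 1.87 CPM, had overlapping intervals in both libraries. No UMI was found in 4431 GA and 2083 Control neutrophil-like cells, where 3 counts would be 0.0702 and 0.191 CPM. The gene reached the minimum of 100 UMIs in no comparison below.

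Myd88 was present in all 15 classes of both libraries. Dendritic-like cells had most, at 67.0 CPM (58.6–76.3) in GA and 52.5 CPM (47.0–58.5) in Control. Macrophage-like cells had 50.1 and 36.6 CPM, neutrophil-like cells 43.1 and 41.3, mesenchymal-like cells 28.0 and 21.1, T- or NK-like cells 14.1 and 15.7, and erythroid-like cells 8.87 and 9.615. The dendritic interval was above those of macrophage- and neutrophil-like cells in both libraries, and the macrophage and neutrophil intervals overlapped in Control only.

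Within the myeloid classes, the members changed with the subclass. Neutrophil-like cells were split by marker genes into dividing precursor-, immature-, mature-, interferon- and chemokine-like groups and 5 unnamed sub-clusters. The interferon-like group was a single sub-cluster led by Clec4n, Egr1 and Egr3. Its 10 leading genes held 1 marker of its own list, Ifit1, and also the chemokine-like marker Ccl3. It scored 0.85 on the chemokine-like markers, where the best sub-cluster has 1, so its name is uncertain. Tlr2 stood at 27.3 CPM in GA and 27.0 in Control in the dividing precursors and at 74.7 and 59.3 in immature-like cells. It stood at 301 and 332 CPM in mature-like cells and at 572 and 595 in chemokine-like cells. The chemokine-like group was named for Cxcl2, Ccl3 and Ccl4 among other markers. Cd14 took the same order over these groups, with 269 and 271 CPM in the dividing precursors and 4121 and 3144 CPM in chemokine-like cells. Interferon-like cells had less Tlr2 than mature-like cells in both libraries, and less Cd14 in GA only. Tlr13 ranged from 3.305 and 5.745 CPM in dividing precursors to 111.1 and 110.8 CPM in interferon-like cells. Ly96 stood at 1.10 and 0.5745 CPM in the dividing precursors and at 20.9 and 25.8 CPM in mature-like cells, whereas Myd88 lay between 24.1 and 54.3 CPM in the dividing, immature-, mature- and chemokine-like groups and at 105.6 and 72.5 CPM in interferon-like cells. The groups and these levels came from the same cells, although the members were left out of the clustering, so the order is a description.

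Macrophage- and monocyte-like subclasses differed in Tlr7, Tlr4 and Cd14. Tlr7 was 84.0 CPM in GA and 85.15 in Control in C1q-like macrophages, 58.7 and 57.6 in Arg1-like macrophages, and 33.55 and 36.75 in Ly6c2 monocyte-like cells. A sub-cluster led by the granule protein genes Ctsg, Prtn3 and Elane, with 221 GA and 99 Control cells, had 4.255 and 4.992 CPM of Tlr7. Tlr4 went another way, with 90.75 and 106 CPM in Arg1-like, 53.1 and 42.7 in C1q-like and 96.75 and 71.2 in Ly6c2 monocyte-like cells. Cd14 was 1498 and 1281 CPM in Ly6c2 monocyte-like cells, and 189.8 and 420.6 CPM in the non-classical monocyte-like cells, of which there were 33 and 30. In that group 5 cells held 78.8% of the GA and 95.2% of the Control UMIs of Cd14.

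**Figure D2:**
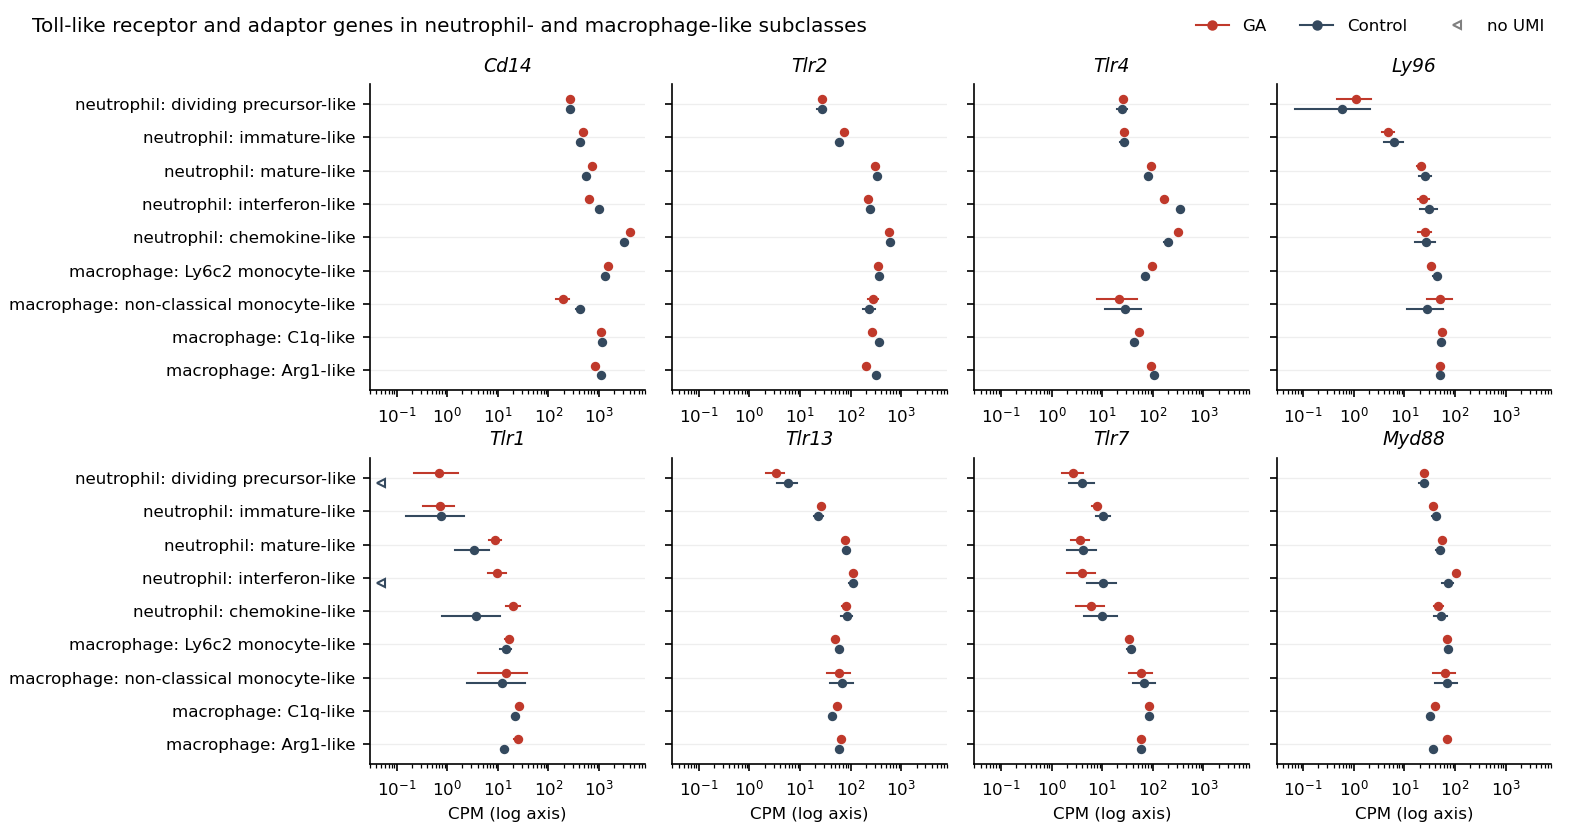
Levels (CPM, log axis) of 8 of the genes in subclasses of neutrophil- and macrophage-like cells, for GA (red) and Control (blue-grey). Lines are exact 95% Poisson intervals and open triangles mark no UMI. Leaving out interferon-like cells, Cd14 and Tlr2 climb from dividing precursor- to chemokine-like neutrophils, and Tlr7 is highest in C1q-like macrophages.

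Over the 30 points made by 15 classes in 2 libraries, the gene whose level was most like that of each member was sought among 15312 genes with at least 200 UMIs, by Pearson's r of log2 CPM. These points share libraries and depth, and r is a description. The closest gene was Adgre4 for Tlr1 (r = 0.90), Sirpb1c for Tlr2 (0.93), Sult1a1 for Tlr3 (0.90), Il18bp for Tlr4 (0.85), Nectin4 for Tlr7 (0.94), Cd300ld for Tlr13 (0.95), Tmem50b for Myd88 (0.82) and Gngt2 for Ly96 (0.90). For Cd14 the closest of all genes was another member, Tlr2 (0.90). Fcgr4 and Sirpb1c were both among the 3 closest genes of Tlr2 and of Tlr13. Tlr9 had too few UMIs to enter.

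The GA and Control libraries were then compared by the log2 ratio of CPM, GA over Control, with its exact conditional 95% interval. A gene with at least 100 UMIs over both libraries in a class entered, and a difference of at least 1.5-fold was called higher or lower. Over all cells, 9 members entered and none was called, against 29.4% of all genes. Ratios ran from −0.40 for Tlr7 to 0.53 for Tlr13, with a median of 0.26 beside −0.09 for all 16776 genes. The shares of cell classes differ between the libraries (52.9% neutrophil-like cells in GA and 27.5% in Control), and the CPM over all cells moves with them, so the comparisons below are within classes.

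In neutrophil-like cells, the difference was in Tlr1. Tlr1 gave 163 UMIs over the 4431 cells of the GA library and 17 over the 2083 of Control, 3.82 against 1.08 CPM, a 3.525-fold difference (2.135–6.20). Its log2 ratio was 1.82, and it lay between 1.58 and 2.22 and was called higher in all 13 alternative settings. It reached the minimum of 100 UMIs through the GA library alone, so its entry depended on its level there. At least 1 Tlr1 UMI was found in 3.295% of GA and 0.816% of Control cells, and in 1.00% and 0.243% after thinning. No single cell dominated, as the 5 richest GA cells held 11 of the 163 UMIs. The GA level was higher in mature-like cells (8.85 against 3.32 CPM), in interferon-like cells (27 UMIs, 9.83 CPM, against none in Control, where 3 counts would be 3.11 CPM) and in chemokine-like cells (20.3 against 3.74 CPM), and the levels were alike in immature-like cells (0.711 and 0.747 CPM, log2 ratio −0.07, −2.07 to 2.45). In each of these subclasses Tlr1 had fewer than 100 UMIs over both libraries, so no call was made there. Tlr1 and Tlr2 were found together in 98 GA neutrophil-like cells (2.21%, 1.799–2.69) and in 6 Control cells (0.288%, 0.106–0.626). Cells with both cannot outnumber those with Tlr1, 146 in GA and 17 in Control, so these counts do not stand apart from the Tlr1 difference.

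No other member was called in neutrophil-like cells. Of the 8 members that entered, 1 was called, against 7.95% of all genes, and the median log2 ratio was −0.02 beside −0.14 for all 9558 genes. Tlr2, Tlr4, Tlr13, Myd88, Cd14 and Ly96 lay between −0.14 and 0.16. Tlr7 stood at −0.54 (−0.88 to −0.18) from 199 and 106 UMIs and was called lower in 4 of 13 alternative settings. Macrophage marker genes, which could bring Tlr1 and Tlr7 into this class, summed to 741 CPM in GA and 667 CPM in Control neutrophil-like cells with all 14 markers detected in both; their part in the Tlr1 difference was not tested.

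The interferon- and chemokine-like neutrophils gave opposite ratios for Tlr4. Tlr4 was 163 CPM in GA and 339 in Control in interferon-like cells (log2 ratio −1.06, −1.27 to −0.85) and 312 and 196 CPM in chemokine-like cells (0.67, 0.41 to 0.94). Cd14 was 627 and 977 CPM in interferon-like cells (−0.64). With both groups joined, the log2 ratio was −0.30 (−0.46 to −0.14) for Tlr4 and 0.05 for Cd14. In chemokine-like cells the Tlr4 ratio reversed in 6 of 14 alternative settings. In interferon-like cells it ran from −1.18 to −0.05 and was called lower in 6 of 12, and Cd14 there also moved with other settings. The opposite ratios therefore depended on how these groups were split. In interferon-like cells 2 of 5 members were called, against 19.8% of all genes, and in chemokine-like cells 1 of 5, against 12.7%. None was called among 4 members in dividing precursors (4.33% of all genes), 6 in immature-like cells (8.03%), 6 in mature-like cells (9.65%) and 6 in unnamed neutrophils (6.13%).

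In macrophage- or monocyte-like cells no member was called of the 9 that entered, against 17.6% of all genes. Tlr2 was 223 CPM in GA and 316 in Control, a log2 ratio of −0.50 (−0.54 to −0.46), and Tlr7 was 42.9 and 62.4 CPM (−0.54, −0.63 to −0.45). Myd88 was higher in GA, at 50.1 against 36.6 CPM (0.45, 0.35 to 0.55). Cd14 and Ly96 were at −0.28 and −0.31. The median of the members was −0.20 beside 0.11 for all 11757 genes, and it turned to 0.15 when the sub-cluster led by Ctsg, Prtn3 and Elane was left out, a sub-cluster that made up 16.3% of the GA and 5.47% of the Control cells of the class.

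In the main setting, the difference in Tlr7 was not seen within the named macrophage subclasses, and that in Tlr2 was seen in 2 of them. Thinned to 2000 UMIs per cell, the Tlr7 ratio of the whole class was 0.01. Without the same sub-cluster, Tlr7 moved to −0.21, Tlr2 to −0.37 and Cd14 to −0.05, and Myd88 moved to 0.59, just past the 1.5-fold limit. Within subclasses Tlr7 differed by −0.02 in C1q-like, 0.03 in Arg1-like and −0.13 in Ly6c2 monocyte-like cells, and each interval held 0. Over the alternative settings these ratios ran from −0.31 to 0.14, from −0.05 to 0.47 and from −0.71 to 0.99. The widest range, in Ly6c2 monocyte-like cells, was lowest with another Leiden seed and highest with thinned cells. Tlr2 was 197 CPM in GA and 319 in Control in Arg1-like cells (−0.70, −0.80 to −0.59), 259 and 369 in C1q-like cells (−0.51, −0.58 to −0.44), and 346 and 363 in Ly6c2 monocyte-like cells (−0.07, −0.16 to 0.03). Arg1-like macrophages showed the most calls, with 4 of 9 members against 6.93% of all genes. There Myd88 was 68.4 against 36.5 CPM (0.91), Tlr1 25.2 against 13.5 CPM (0.90) and Tlr3 12.6 against 7.985 CPM (0.66). Tlr1 in this group turned to −0.16 when the libraries were not aligned before clustering.

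No member was called among 9 in C1q-like cells (8.71% of all genes) or among 8 in Ly6c2 monocyte-like cells (7.08%). Cd14 was called lower in non-classical monocyte-like cells (1 of 2 members, 12.6%), from 52 and 105 UMIs, of which 76 of the Control ones came from 1 cell, and Tlr7 and Cd14 in the unnamed sub-clusters (2 of 8 members, 22.4%). Neutrophil marker genes in the macrophage class summed to 394 CPM in GA and 106 in Control with all 10 markers detected in both, and 1 sub-cluster of 23 GA and 3 Control cells was led by S100a8, S100a9 and Retnlg; their part in these ratios was not tested.

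**Figure D3:**
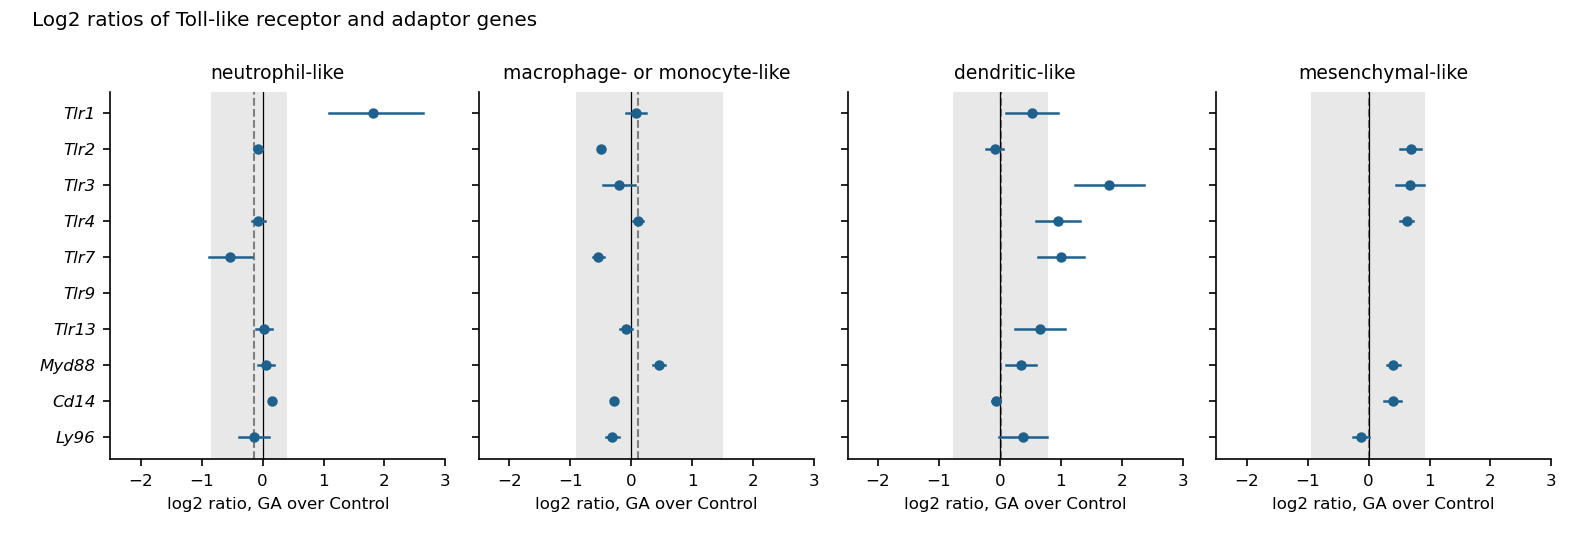
Log2 ratio of GA over Control (points) with exact conditional 95% intervals (lines) in 4 classes, for genes with at least 100 UMIs in the class. Grey bands hold the central 95% of all genes entered and dashed lines their median. Tlr1 in neutrophil-like cells (1.82) and Tlr3 (1.79), Tlr7 (1.00) and Tlr4 (0.95) in dendritic-like cells lie above the bands.

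Dendritic-like cells numbered 170 in GA and 330 in Control and had 4 members called higher in GA. They formed a single cluster, with 1 marker of its own list, Cd209a, among its 10 leading genes. The cluster scored 0.769 on the macrophage markers, where the best cluster has 1. Kinds of dendritic cell were not split, and their shares in each library were not tested. Tlr3 was 23.7 CPM (18.8–29.5) in GA and 6.86 CPM (4.97–9.25) in Control, a log2 ratio of 1.79. Of the 81 GA UMIs, however, 38 came from 1 cell, and without the 5 richest cells of each library the ratio was 1.19. Tlr7 was 36.3 and 18.2 CPM (1.00, 0.62 to 1.38), Tlr4 38.9 and 20.1 CPM (0.95, 0.59 to 1.32) and Tlr13 27.5 and 17.4 CPM (0.66, 0.25 to 1.07). These 4 of 9 members were called higher, against 4.78% of all genes, and none was called lower. The members' median was 0.53 beside 0.02 for all 7595 genes. Tlr2 and Cd14, with the most UMIs, were at −0.09 and −0.07.

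Macrophage marker genes also stood higher in the GA dendritic-like cells, at 5079 CPM against 3440, with all 14 markers detected in both libraries, and neutrophil marker genes at 503 against 198 CPM with all 10. The part of macrophage and neutrophil transcripts in the dendritic-like ratios was not tested.

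In mesenchymal-like cells, the receptors Tlr2, Tlr3 and Tlr4 were all higher in GA. Tlr2 was 10.9 CPM (9.90–11.9) in 782 GA cells and 6.73 CPM (6.22–7.27) in 1717 Control cells, 1.61-fold (1.43–1.82). Tlr3 was 6.29 and 3.94 CPM, 1.595-fold (1.36–1.87), and Tlr4 was 26.7 and 17.3 CPM, 1.54-fold (1.43–1.66). These 3 of the 6 members that entered were called higher, against 5.25% of all genes. Myd88 and Cd14 were higher by less, with log2 ratios of 0.41 and 0.40, and Ly96 was at −0.13 (−0.2636 to 0.0001). For Cd14, the 5 richest cells held 27.1% of the GA and 4.91% of the Control UMIs. A single cell held 95 of its 671 GA UMIs. The median of the 6 was 0.52, beside 0.0023 for all 14050 genes.

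The mesenchymal difference varied among the 4 clusters that make up the class. In the cluster led by Loxl2 and Col5a3 (327 GA and 529 Control cells), the log2 ratios were 0.89 for Tlr2, 0.55 for Tlr3 and 0.68 for Tlr4. In the cluster led by Clec3b and Mmp3 (282 and 511 cells) they were 0.22, 0.74 and 0.52. In the cluster led by Gpx3 and Mmp13 (120 and 329 cells), Tlr4 was 12.3 CPM in GA and 12.0 in Control (0.03, −0.38 to 0.44). In the cluster led by Eln and Mgp, with 53 GA and 348 Control cells, Tlr2 was 17.3 and 2.71 CPM (2.67, 1.97 to 3.37) and Tlr4 12.2 and 12.8 CPM. Tlr3 was above 0 in all 4 clusters, with an interval that held 0 in the one led by Gpx3. Without the cluster led by Eln, the class ratios were 0.50 for Tlr2, 0.65 for Tlr3 and 0.59 for Tlr4, and Tlr2 was then under the 1.5-fold limit. Thinned to 2000 UMIs per cell they were 0.25, 0.13 and 0.50.

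**Figure D4:**
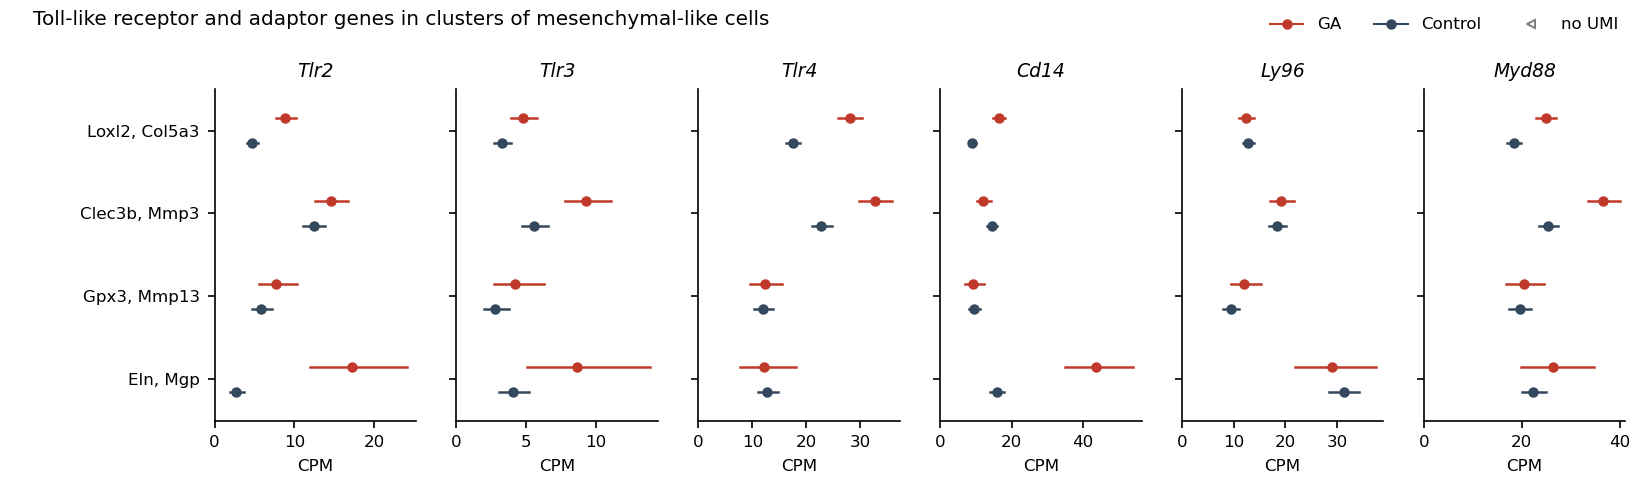
Levels (CPM, linear axis from 0) of 6 genes in the 4 clusters of mesenchymal-like cells, named by their first 2 leading genes, for GA (red) and Control (blue-grey) with exact 95% Poisson intervals. Tlr4 is higher in GA in the clusters led by Loxl2 and Clec3b and near level in the others, and Tlr2 is highest in the GA cells led by Eln.

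Transcripts of other cells also differed in the mesenchymal-like class. The 10 neutrophil marker genes, all detected in both libraries, summed to 338 CPM in GA and 55.5 in Control, and the 14 macrophage marker genes, also all detected, to 169.7 and 149.6 CPM. The part of neutrophil and macrophage transcripts in the mesenchymal ratios was not tested.

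Smaller classes added single values. Tlr7 in plasmacytoid dendritic-like cells was the only member to enter there and was called lower (−0.72, −1.22 to −0.22; 13.7% of all genes were called). In B-like cells neither of the 2 members that entered, Myd88 and Ly96, was called (2.28% of all genes). In granule-protein progenitor-like cells 1 of 5 was called, against 8.32% of all genes: Cd14 was 49.4 CPM in GA and 81.5 in Control (−0.72). The 5 richest of these cells held 17.2% of the GA and 38.1% of the Control UMIs of Cd14.

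Cd14 was also called in 4 classes with few cells. In erythroid-like cells, where it alone entered (7.7% of all genes were called), it was 4.09 CPM in GA and 104 in Control, but 186 of the 227 Control UMIs came from 1 cell. The 14 macrophage markers summed there to 19.8 CPM in GA, with Fcgr1, C1qc, Ms4a7, F13a1 and Ace at 0, and to 293 CPM in Control, with Ace at 0, and their part in the value was not tested. In endothelial-like cells (1 of 2 members, 14.4%) it was 234 and 147 CPM, and the ratio turned from 0.67 to −0.44 without the 5 richest cells. In osteoclast-like cells (1 of 2 members, 7.29%) it was 40.2 and 70.7 CPM (−0.81), and in pericyte- or smooth muscle-like cells (the only member, 26.5%) 135 and 56.5 CPM (1.25). The 5 richest osteoclast-like cells held 64.3% of the GA and 64.9% of the Control UMIs. In pericyte- or smooth muscle-like cells these shares were 53.6% and 40.9%. In T- or NK-like, basophil- or mast-like, megakaryocyte-like and osteoblast-like cells no member had 100 UMIs.

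The pathway around the receptors was followed in 7 lists with 50 further genes, and counts are given over the members of a list with at least 100 UMIs in the class. In neutrophil-like cells none of the 12 kinases and ubiquitin enzymes (Irak1, Irak4, Traf6 and others), 4 other adaptors, 4 restraining genes, 3 transcription factors or 3 other receptors was called. Of 10 response genes 3 were lower in GA, against 6.81% of all genes: Tnf, a cytokine (44.5 against 73.1 CPM, log2 ratio −0.72), Ccl3, a chemokine (77.4 against 122 CPM, −0.66), and Il10, an anti-inflammatory cytokine (1.76 against 2.99 CPM, −0.77). The median of the response genes was −0.28, beside −0.14 for all genes. Cd36, a scavenger receptor that assists Tlr2 and the only called gene of 6 accessory genes, was lower at 1.26 against 3.06 CPM (−1.27). Il1b, which encodes the cytokine IL-1β, was 2185 and 2108 CPM.

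In macrophage-like cells 4 of 10 response genes were called, against 17.6% of all genes, with Il6 higher (34.9 against 19.4 CPM, 0.84) and Tnf (121.0 against 209.6 CPM, −0.79), Ptgs2, which encodes cyclooxygenase-2 (257 against 422 CPM, −0.71), and the neutrophil chemokine gene Cxcl2 (2410 against 3886 CPM, −0.69) lower. Cxcl2, Il1b, Cxcl10, Ccl3 and Ccl4 also served to name subclasses of neutrophil-like cells, but not those of macrophage-like cells. The response list had a median of −0.54 beside 0.11 for all genes. Within subclasses its median was 0.09 in C1q-like, −0.24 in Arg1-like and −0.14 in Ly6c2 monocyte-like cells, and −0.72 in the unnamed sub-clusters, whose shares differ between the libraries. Of 5 restraining genes, Tnfaip3, which encodes the ubiquitin-editing enzyme A20, was lower (212 against 325 CPM, −0.62). Sigirr was higher (2.10 against 1.16 CPM, 0.86). Within subclasses no restraining gene was called among 4 in Arg1-like (6.93% of all genes), 4 in C1q-like (8.71%) or 3 in Ly6c2 monocyte-like cells (7.08%). In the unnamed sub-clusters 3 of 4 were called lower, against 10.3% of all genes. Lbp, which hands lipopolysaccharide to Cd14, was higher (23.5 against 9.12 CPM, 1.37), Cd36 was lower (484 against 824 CPM, −0.77), and Irf7, the factor that drives interferon genes downstream of Tlr7 and Tlr9, was higher (137 against 82.4 CPM, 0.73). None of 12 kinases and ubiquitin enzymes, 4 other adaptors or 4 other receptors was called.

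Irf7 was also the pathway gene with the largest ratio in mesenchymal-like cells, at 84.1 CPM in GA and 22.3 in Control (1.91, 1.84 to 1.99). There Irak3, a kinase-dead inhibitor of Myd88 signaling, was 72.4 against 43.4 CPM (0.74), Lbp 93.2 against 61.7 CPM (0.59) and Pik3ap1, an adaptor to PI3K, 2.82 against 1.81 CPM (0.64). Il1b, a neutrophil-rich transcript, was the only one of 10 response genes called (17.9 against 6.85 CPM, 1.39). Of 41 pathway genes that entered in this class, 6 were called higher and 1, Cd36, lower, against 11.3% of all genes called either way.

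In dendritic-like cells, Irf7 was 237 CPM in GA and 92.6 in Control (1.36). Of 11 response genes, 3 were called higher, among them the chemokine genes Ccl3 (242 against 85.4 CPM, 1.51) and Ccl4 (480.0 against 222 CPM, 1.11), and 3 lower, among them Il6 (11.7 against 25.7 CPM, −1.14) and Ptgs2 (202 against 395 CPM, −0.97). Cd36 was higher (158 against 77.6 CPM, 1.02), as was Socs1, a suppressor of cytokine signaling (25.8 against 16.0 CPM, 0.69). None of 10 kinases and ubiquitin enzymes was called. Over the class as a whole, 8.81% of all genes were called either way.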

How the data were processed

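The deposited files hold UMI counts per gene and barcode, which the authors made with Cell Ranger 7.0.1 (per the file headers) against mm10, as 1 filtered matrix per library; 0 columns belonged to another series. From these counts, barcodes with 500 to 140000 UMIs, 200 to 9500 genes and at most 15% mitochondrial UMIs were kept. Scrublet marked 0 GA and 7 Control barcodes (0.0865%), under the 0.5% set as needed for its marks to be used. Top-scoring barcodes were taken out instead, at 0.8% per 1000 barcodes (653 GA and 524 Control). The study's methods name doublet removal with Scrublet. Whether the deposited matrices are from before or after it, and whether free RNA was removed, is not given in the sources used here. If they are from after it, few marks would be left to find, and cells that the study kept were taken out here.

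Cells of both libraries were clustered with scanpy 1.11.5 (Python 3.11.15, leidenalg 0.10.2) on Pearson residuals of 2000 variable genes, without the 10 genes and their pathway lists, with 50 principal components, a NumPy version of Harmony, 15 neighbours and Leiden resolution 1. Clusters were named from marker lists, by at least 3 raised markers, with thresholds set after the data had been seen. Neutrophil- and macrophage-like cells were clustered again for subclasses. The members and lists were chosen with earlier results of these data known. At most 4 genes per pathway list are named, those with most UMIs or the largest ratio.

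Counts were summed per class and library and divided by all UMIs of the class (CPM). Intervals are exact Poisson (levels), Clopper-Pearson (shares) and conditional binomial (ratios), at 95%, from scipy 1.17.1; UMIs in 1 library make no replicate, so no test was run. A ratio needed 100 UMIs over both libraries, and a call a 1.5-fold difference. Depth was a median of 10878 UMIs per GA and 16560 per Control cell; for shares, cells were also thinned to 2000 UMIs, without 163 GA and 205 Control cells below that. The ratio and interval code was tested on simulated data. The labels give 1.2 mg/kg for 1 week, while the study's methods name 2 mg/kg and 4 weeks for GA; the labels were followed. Alternatives covered doublets, mitochondrial limit, Harmony, resolution, seed, variable genes, transformation, depth, scaling and the richest cells.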

Additional observations from a re-analysis of the deposited data

Results flagged for a closer look

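In the following genes the ratio of GA over Control was past 1.5-fold in opposite directions in different classes, or in different subclasses of neutrophil-like cells. With 1 library per condition, the difference between classes was not tested. The log2 ratio of Tlr4 was −1.06 in interferon-like and 0.67 in chemokine-like neutrophils. The first was called in 6 of 12 alternative settings, and the second reversed in 6 of 14. The log2 ratio of Tlr7 was 1.00 in dendritic-like and −0.72 in plasmacytoid dendritic-like cells. Across a class and a subclass, the log2 ratio of Tlr2 was 0.69 in mesenchymal-like cells and −0.70 in Arg1-like macrophages.

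For Cd14, the log2 ratio was −0.72 in granule-protein progenitor-like cells, −4.67 in erythroid-like cells and −0.81 in osteoclast-like cells, and it was 0.67 in endothelial-like and 1.25 in pericyte- or smooth muscle-like cells. It was also past the limit in interferon-like neutrophils (−0.64) and non-classical monocyte-like cells (−1.15). In the erythroid-like class 94.7% of the Control UMIs of Cd14 came from 5 cells, and in the granule-protein progenitor-like class 38.1% did.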

How the results depend on the processing

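No paired analysis was possible because each condition has 1 library. Recomputing 103 log2 ratios under the alternative settings gave 1306 values. Of these values, 1018 stayed within the counting interval of the main ratio, 274 lay outside it and 14 reversed a call. A change of sign was counted as a reversal only where the main ratio was called, so uncalled ratios that changed sign are among the others. Of 21 calls, 4 held in every alternative run. In neutrophil-like cells this was Tlr1 (1.58 to 2.22), which reached the UMI minimum through the GA library alone, so its entry depended on its level there. In dendritic-like cells these were Tlr3 (1.19 to 2.54), Tlr4 (0.65 to 1.04) and Tlr7 (0.89 to 1.96). The entry of Tlr3 there also depended on its level in GA. All alternatives drew on the same libraries, so a call that held in them gained no independent support. In mesenchymal-like cells Tlr2 ranged from 0.25 to 0.69, Tlr3 from 0.13 to 0.79 and Tlr4 from 0.50 to 0.68, each lowest when thinned to 2000 UMIs per cell.

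The median of the members in neutrophil-like cells, −0.02, stayed between −0.09 and 0.12. In macrophage- or monocyte-like cells the median of −0.20 changed sign, to 0.13 without removal of doublets, 0.20 without Harmony, 0.18 with another Leiden seed, 0.0823 as a mean of per-cell CPM and, in an alternative chosen after seeing the data, 0.15 without the sub-cluster led by Ctsg, Prtn3 and Elane. Over all cells it was 0.26, and 0.29 without removal of doublets, 0.31 with thinned cells, 0.30 as a mean of per-cell CPM, 0.34 relative to all genes and 0.15 with members of at least 20 UMIs. The cause was not tested.

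Tlr4 in chemokine-like neutrophils (0.67) turned to −0.23 without removal of doublets, −0.15 with at most 10% mitochondrial UMIs, −1.05 at resolution 0.5, −0.21 with another seed, −0.12 with members and pathway genes among the variable genes and −0.30 with both neutrophil groups joined, a setting added after seeing the data. Cd14 in interferon-like neutrophils (−0.64) turned to 0.73 at the 10% limit, 0.81 with another seed, 0.70 with those variable genes and 0.0455 in the joined groups. Thinned to 2000 UMIs per cell, Tlr7 in plasmacytoid dendritic-like cells turned to 0.0632 and Cd14 in osteoclast-like cells to 1.18. Tlr1 in Arg1-like macrophages turned to −0.16 without Harmony, and Cd14 in endothelial-like cells to −0.44 without the 5 richest cells. The cause was not tested. Intervals hold counting error only, and differences between mice could not be measured.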
